A study of Homo sapiens with 10 samples.

Results

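The genes described here build and load the MCM helicase, the ring of MCM2 to MCM7 that unwinds DNA ahead of the replication fork, and license the origins at which replication starts. They are MCM2, MCM3, MCM4, MCM5, MCM6, MCM7, CDC6, CDC45, ORC1 and ORC2. Every probe set (the group of short probes that together measure 1 transcript) whose annotation named only 1 of these 10 genes was taken, which gave 11 of the 12625 probe sets on the array: 2 for CDC6 and 1 for each other gene. RNA came from ST486, an established line of human Burkitt's lymphoma cells, taken 60 h after transduction with a lentiviral vector. In 5 samples the vector carried a short hairpin RNA (shRNA) against the kinase gene STK38 (Sigma clone TRCN0000010215), and in 5 it carried a non-target control shRNA (SHC002). All 10 samples thus share the cell line, the lentiviral vector system and the time, and each was hybridised from 5 ug of total RNA to 1 Affymetrix HG-U95Av2 array. A single hairpin in a single line was used, and the labels do not say whether replicates were separate cultures, so the p-values rest on variation among arrays that may be purely technical.

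In the G1 phase of the cell cycle, the origin recognition complex (ORC) binds DNA at an origin, and CDC6 and CDT1 join it to load a double ring of MCM2 to MCM7. This is licensing. In S phase, when the kinases CDK2 and CDC7 are active, CDC45 and the GINS complex attach to the loaded ring to turn it into the active helicase. Many of these genes are transcribed at the passage from G1 to S phase under the E2F factors, and Burkitt's lymphoma cells, driven by a translocated MYC gene, divide fast.

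Array medians lay between 2.12 and 2.25 on the log2 scale, and all values between 0.35 and 12.65. STK38 mRNA, the target of the hairpin, was lower on every array with the STK38 shRNA, at 2.83 ± 0.21 against 5.02 ± 0.22 on the control arrays at its brightest probe set (log2, SD, n = 5 each). Its log2 fold change was -2.19 there, and -1.16 and -0.82 at the other STK38 probe sets, all called. MYC was called lower at its 4 probe sets, with log2 fold changes of -1.64 to -1.38. One array set itself apart: STK38 shRNA replicate 4 had a mean correlation of 0.982 with the other arrays of its group, where each of those had 0.992 or more with its group; the members' values without it are given below. Of 6 B cell markers on the array, 5 were above background on all arrays, while PAX5 was above it on none. CD79A, a B cell receptor chain, was called higher (log2 fold change 0.49, adjusted p = 0.000689), and CD247 of the T cell list was called lower (adjusted p = 0.00021). Only 1 array, a control, had CD247 above background. The 4 germinal centre B cell markers were all called lower, with mean levels of 5.49 to 5.77 against 6.81 to 6.90 on control arrays. Mean levels of the marker lists for other cell types were 1.53 to 1.68 against 1.62 to 1.71 on control arrays for T cells, 1.85 to 2.21 against 1.87 to 2.05 for monocytes, and 2.27 to 2.66 against 2.19 to 2.41 for epithelial cells. Of these lists KRT8 alone was above background on all arrays, and 5 of 6 T cell, 4 of 6 monocyte and 2 of 5 epithelial markers were above it on none. Fibroblast markers averaged 1.87 to 2.14 against 1.86 to 1.97 and erythroid markers 1.59 to 1.86 against 1.71 to 1.81. The part of these lists in the results below was not tested.

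The licensing and helicase genes were lower with the STK38 shRNA. Of the 11 probe sets, 10 were called lower and 0 higher in limma at a Benjamini-Hochberg adjusted p of 0.05, where 15.8% of all 7535 probe sets tested were called lower and 14.1% higher (29.9% in all). All 10 genes were called at 1 probe set each, although ORC1 did not rise above the array background. At 9 of the 11, every STK38 shRNA array lay below every control array, a separation seen at 12.8% of all probe sets tested. The opposite separation was seen at 0 of the 11 and at 9.33% of all, and either one at 22.1%. The median log2 fold change of the 11 was -1.08, against 0.018 over all probe sets tested. Without STK38 shRNA replicate 4, all 11 were called lower. The log2 fold changes were then -1.80 for MCM6, -1.18 for MCM4, -0.95 for both MCM3 and MCM7, -0.45 for MCM2, -1.20 for CDC45 and -0.66 for ORC2, and those of MCM5 and CDC6 stand with these genes below. In RNA from whole cultures, fewer cells in the phases that express these genes and less RNA in each cell cannot be told apart.

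**Figure D1:**
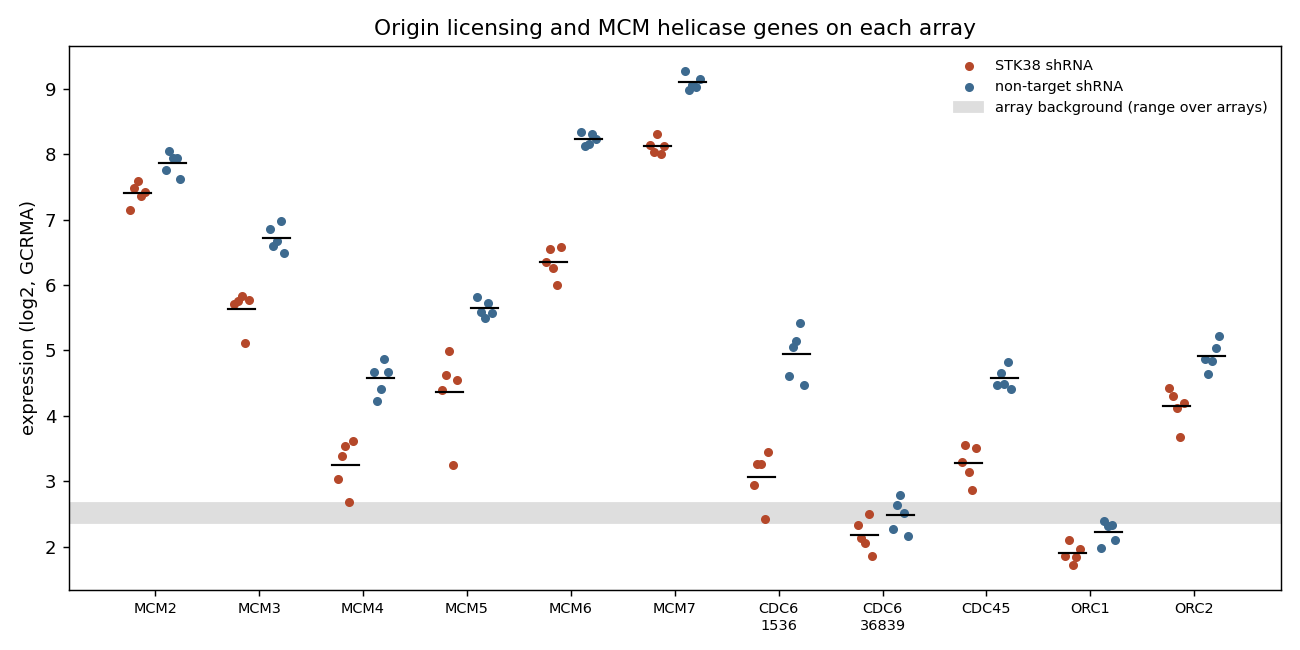
Expression (log2, GCRMA) of each member probe set on each array, with STK38 shRNA arrays in red and non-target shRNA arrays in blue; black bars are group means (n = 5 each) and the grey band is the range of the array background, 2.36 to 2.66. The groups stand apart at all but ORC1 and the CDC6 probe set 36839_at, where the points lie near or below the grey band.

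MCM6 showed the largest change of the helicase genes. It encodes a subunit that binds CDT1 during loading. Its values were 6.35, 6.55, 6.26, 6.00 and 6.59 on STK38 shRNA arrays 1 to 5, and 8.35, 8.13, 8.15, 8.32 and 8.23 on the control arrays. The highest STK38 shRNA array thus lay 1.55 below the lowest control array. The fall was 3.71-fold, with a 95% interval of 3.15 to 4.35 (log2 fold change -1.89, SE 0.11, limma adjusted p = 1.66e-08). It had rank 30 among falls of the 7535 probe sets tested, with 0.385% falling further.

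MCM4 and MCM5 followed. MCM4, which carries an N-terminal tail that the CDC7 kinase phosphorylates, had 3.03, 3.38, 3.55, 2.69 and 3.62 on the STK38 shRNA arrays, against 4.67, 4.23, 4.42, 4.86 and 4.68 on the control arrays. Replicate 4 of the STK38 shRNA arrays was barely above its array background of 2.65 at MCM4. The fall of MCM4 was 2.50-fold (95% interval 1.91 to 3.27, adjusted p = 6.51e-05). MCM5, which with MCM2 forms the gate through which the ring opens around DNA, had 4.40, 4.63, 4.99, 3.25 and 4.54 on the STK38 shRNA arrays, against 5.82, 5.59, 5.50, 5.72 and 5.58. Replicate 4 lay far below the other STK38 shRNA arrays at MCM5, and the SD was 0.66 in that group against 0.13 in the controls. MCM5 fell 2.43-fold with all arrays (95% interval 1.70 to 3.47, adjusted p = 0.000895). Its log2 fold change was -1.28, and -1.0 without replicate 4, where the adjusted p was 5.82e-06.

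MCM3 and MCM7 changed by close to 1 on the log2 scale. MCM3, the partner of MCM5 in the ring, had 5.71, 5.76, 5.83, 5.12 and 5.77 on the STK38 shRNA arrays, against 6.86, 6.61, 6.67, 6.98 and 6.50 on the control arrays. It fell 2.12-fold (95% interval 1.72 to 2.62, adjusted p = 4.14e-05). MCM7, which pairs with MCM4 at an ATPase site of the helicase core, had 8.14, 8.04, 8.31, 8.01 and 8.12 on the STK38 shRNA arrays, against 9.28, 8.98, 9.06, 9.04 and 9.16. Its replicates were the tightest of the helicase genes with the STK38 shRNA (SD 0.12), and it fell 1.97-fold (95% interval 1.76 to 2.21, adjusted p = 3.35e-07).

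MCM2 changed least. This subunit binds histones H3 and H4 at the fork. It had 7.14, 7.49, 7.59, 7.36 and 7.43 on the STK38 shRNA arrays, against 7.76, 8.05, 7.94, 7.94 and 7.62 on the control arrays. The groups were separate by 0.030 on the log2 scale, far less than at the other subunits, and the fall was 1.37-fold (95% interval 1.18 to 1.60, adjusted p = 0.00321).

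**Figure D2:**
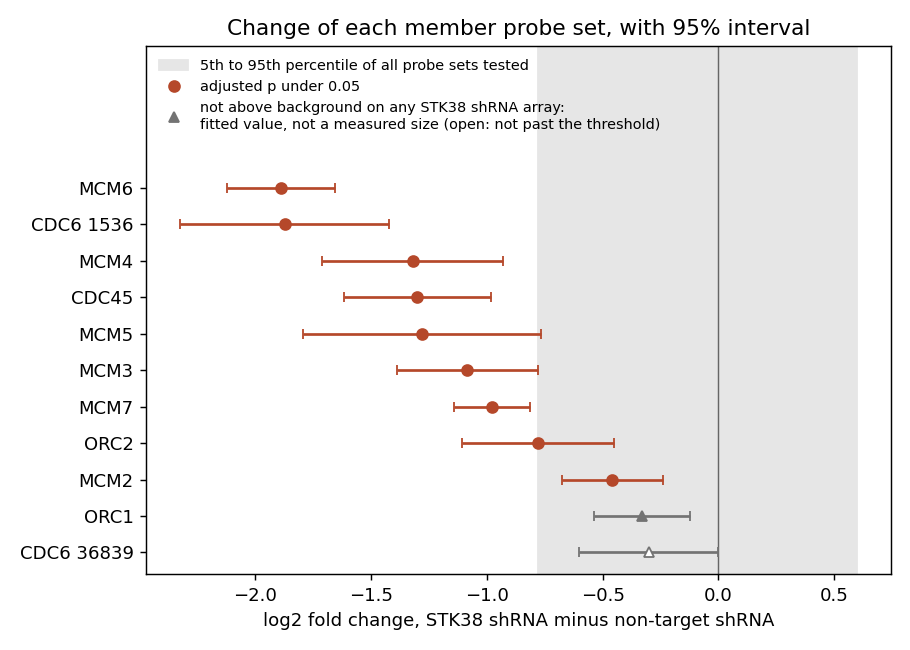
Log2 fold change of each member probe set, STK38 shRNA minus non-target shRNA, with the 95% interval from limma; the grey area spans the 5th to the 95th percentile of all probe sets tested. The changes run from -1.89 at MCM6 to -0.46 at MCM2 among the helicase genes, and the triangles mark probe sets at or under background throughout the STK38 shRNA arrays.

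Subunits of the ring did not change equally. For each of the 15 pairs of MCM2 to MCM7, the difference between their log2 values was taken on each array. It was compared between the groups with a two-sided exact permutation test. The difference cancels an equal shift of a whole array, but not one that depends on brightness. MCM6 fell more than 4 of the others: the log2 fold change of MCM6 minus that of MCM2 was -1.43, minus that of MCM7 -0.91, minus that of MCM3 -0.81 and minus that of MCM4 -0.57. Each of these 4 differences had an exact p of 0.00794, the smallest that 5 against 5 arrays allow, and 0.0238 adjusted over the 15 pairs. They passed the threshold with each of the 10 arrays left out in turn. MCM2 fell less than every other subunit. Beside MCM6, the log2 fold change of MCM5 minus that of MCM2 was -0.82 (exact permutation p adjusted over the pairs 0.0238), of MCM4 minus MCM2 -0.86, of MCM3 minus MCM2 -0.63 and of MCM7 minus MCM2 -0.52 (0.0298 for each of these 3). Only the difference from MCM6 and that from MCM5 passed with every array left out in turn; those from MCM4, MCM3 and MCM7 passed in 2, 3 and 3 of these 10 fits and kept their direction in all.

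The remaining pairs did not pass. MCM6 and MCM5 differed by -0.61 with all arrays (exact permutation p = 0.0476, adjusted 0.0794) and by -0.80 without STK38 shRNA replicate 4 (adjusted 0.0397), the array on which MCM5 was lowest. Among MCM3, MCM4, MCM5 and MCM7 the differences lay between -0.34 and -0.039, with adjusted exact permutation p of 0.130 to 0.817. Probe sets differ in brightness and probe sequence, so these are differences in the change of array signals. MCM4 was the dimmest subunit, and GCRMA compresses differences of dim probe sets. The part of this in the differences that involve MCM4 was not tested.

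**Figure D3:**
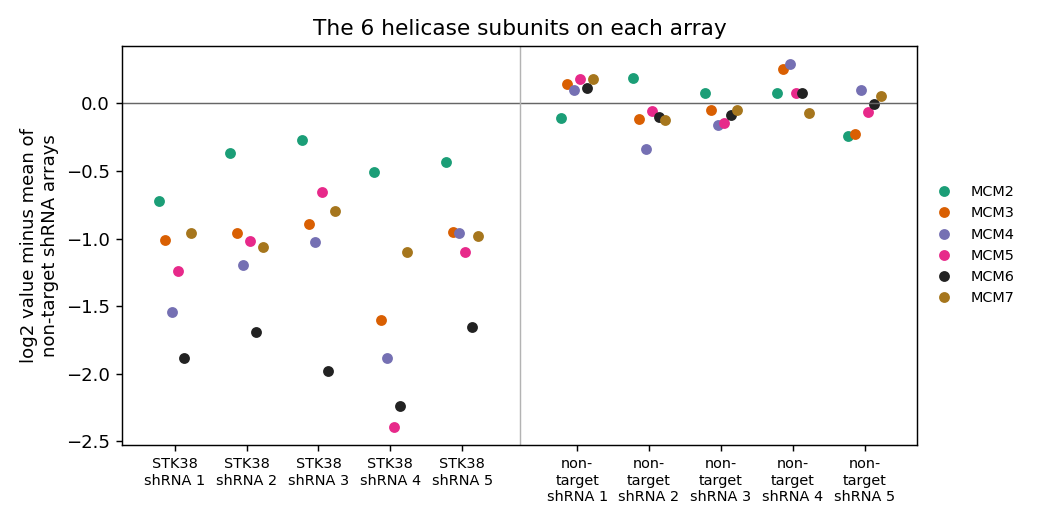
Log2 value of each helicase gene minus its mean over the non-target shRNA arrays, for each of the 10 arrays. MCM2 (green) is the least changed subunit on every STK38 shRNA array, MCM6 (black) the most changed on all but replicate 4, where MCM5 (pink) is lower at -2.39.

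Averaged over the 6 subunits, the STK38 shRNA arrays had values relative to the control mean of -1.23, -1.05, -0.94, -1.62 and -1.01 in replicates 1 to 5. Control arrays lay between -0.091 and 0.12. Replicate 4 was thus the lowest of the STK38 shRNA arrays, and none of these came near the control arrays.

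CDC6, an ATPase that joins ORC in G1 phase and loads the helicase, changed as much as MCM6 at its brighter probe set, 1536_at. That probe set had 2.94, 3.27, 3.27, 2.42 and 3.44 on the STK38 shRNA arrays, against 4.61, 5.05, 5.15, 5.42 and 4.47 on the control arrays. Replicate 4 was not above the array background there, and the other 9 arrays were. The fall was 3.66-fold (95% interval 2.68 to 5.01; log2 fold change -1.87, SE 0.21, limma adjusted p = 1.08e-05) and -1.71 on the log2 scale without replicate 4. It had rank 31 among the falls, next to MCM6.

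The other CDC6 probe set, 36839_at, is annotated to the same mRNA record and was dim. It had 2.34, 2.13, 2.06, 2.50 and 1.85 on the STK38 shRNA arrays, none above background, against 2.27, 2.64, 2.79, 2.52 and 2.16 on the control arrays, 3 above background. The groups overlapped, and the probe set did not pass the test (adjusted p = 0.129); it passed without STK38 shRNA replicate 4 (adjusted p = 0.0214). No size is given for it, and it is not set against the brighter probe set.

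CDC45, which completes the active helicase together with GINS, had 3.30, 3.55, 3.14, 2.86 and 3.51 on the STK38 shRNA arrays, against 4.48, 4.66, 4.49, 4.83 and 4.42 on the control arrays. Every array was above background and the groups stood 0.86 apart. CDC45 fell 2.46-fold (95% interval 1.98 to 3.07, adjusted p = 1.17e-05).

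The ORC members differed in what could be measured. ORC2, a core subunit of the complex that marks origins, had 4.43, 4.30, 4.12, 3.67 and 4.20 on the STK38 shRNA arrays, against 4.87, 4.65, 4.83, 5.04 and 5.22 on the control arrays, without overlap. It fell 1.72-fold (95% interval 1.37 to 2.16, adjusted p = 0.00131). ORC1, the largest ORC subunit and an ATPase, had 1.86, 2.10, 1.72, 1.83 and 1.96 on the STK38 shRNA arrays, against 1.98, 2.39, 2.31, 2.33 and 2.11. The groups overlapped and 0 of the 10 arrays were above background, so no size is given although limma called it lower (adjusted p = 0.0173). That call was lost without STK38 shRNA replicate 3 (adjusted p = 0.0523).

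Promoter sequences of the members are shown because the genes moved together and E2F, MYC and NF-Y binding words are known from S phase promoters. RefSeq windows on GRCh38.p14, from 250 bases before to 50 after an annotated transcription start, were at hand for 8 of the 10 genes (12 windows); MCM4 and MCM5 had none. As E2F words, the 8 sequences TTTCCCGC, TTTCGCGC, TTTGCCGC, TTTGGCGC, TTTCCCGG, TTTCGCGG, TTTGCCGG and TTTGGCGG were searched on both strands, overlapping matches included. Below are the windows of MCM6 and CDC6, the genes with the largest falls, of MCM2, the subunit with the smallest, and of ORC2, which held no such word. They are printed 5′ to 3′ on the strand of the gene, and capitals mark E2F words.
MCM6, chr2:135876394-135876693, minus strand: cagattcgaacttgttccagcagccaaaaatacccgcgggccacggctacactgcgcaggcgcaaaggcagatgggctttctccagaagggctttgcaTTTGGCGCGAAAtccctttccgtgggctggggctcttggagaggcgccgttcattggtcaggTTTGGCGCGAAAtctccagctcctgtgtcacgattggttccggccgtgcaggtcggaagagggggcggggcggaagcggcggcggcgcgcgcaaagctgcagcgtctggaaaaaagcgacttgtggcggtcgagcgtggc
CDC6, chr17:40287629-40287928, plus strand: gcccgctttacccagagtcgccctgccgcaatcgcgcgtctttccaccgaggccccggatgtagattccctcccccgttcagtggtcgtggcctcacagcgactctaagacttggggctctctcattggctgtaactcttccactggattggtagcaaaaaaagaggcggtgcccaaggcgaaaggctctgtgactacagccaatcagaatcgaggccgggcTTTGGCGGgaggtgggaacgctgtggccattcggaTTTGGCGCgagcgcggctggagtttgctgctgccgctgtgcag
MCM2, chr3:127598161-127598460, plus strand: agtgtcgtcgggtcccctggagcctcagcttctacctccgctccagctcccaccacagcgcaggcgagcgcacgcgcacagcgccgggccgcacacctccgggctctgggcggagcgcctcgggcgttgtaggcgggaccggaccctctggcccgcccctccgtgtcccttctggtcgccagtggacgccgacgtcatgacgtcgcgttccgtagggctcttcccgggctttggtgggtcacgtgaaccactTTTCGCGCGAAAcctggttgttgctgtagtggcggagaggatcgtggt
ORC2, chr2:200963611-200963910, minus strand: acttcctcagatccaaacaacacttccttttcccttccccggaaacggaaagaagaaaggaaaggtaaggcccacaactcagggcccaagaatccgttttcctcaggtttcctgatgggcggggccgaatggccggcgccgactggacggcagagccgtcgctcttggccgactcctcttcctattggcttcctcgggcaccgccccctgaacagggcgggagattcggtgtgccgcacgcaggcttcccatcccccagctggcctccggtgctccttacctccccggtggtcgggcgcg

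An E2F word was present at 1 or more starts of 6 of the 8 genes, MCM2, MCM3, MCM6, MCM7, CDC6 and CDC45, against 7.43% of all 27305 genes with such windows. ORC1 and ORC2 had none of these exact words. The ORC1 window holds ATTGGCGC and the ORC2 window GCGGGAGA, each 1 base away from a word or its reverse complement. How common such near matches are was not counted. MCM6 had 4 matches, in which words on opposite strands overlap to form the same capital run at 2 places, starting 152 and 90 bases before the start. MCM2 had 2 matches, overlapping in the same way, with the first base 3 bases into the transcript. CDC6 had 1 beginning 28 bases before the start and 1 beginning 8 bases into the transcript. The MYC E-box CACGTG was found in MCM2 and MCM7, 2 of the 8 genes, against 8.77% of all genes, and at MCM2 it begins 11 bases before the start. The CCAAT word, which NF-Y binds, was found in 7 of the 8, all but MCM2, against 39.7% of all genes. The words were chosen after these sequences were seen, so the shares do not test whether the words are more common in the members. A match is a word in the sequence, and binding was not measured.

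**Figure D4:**
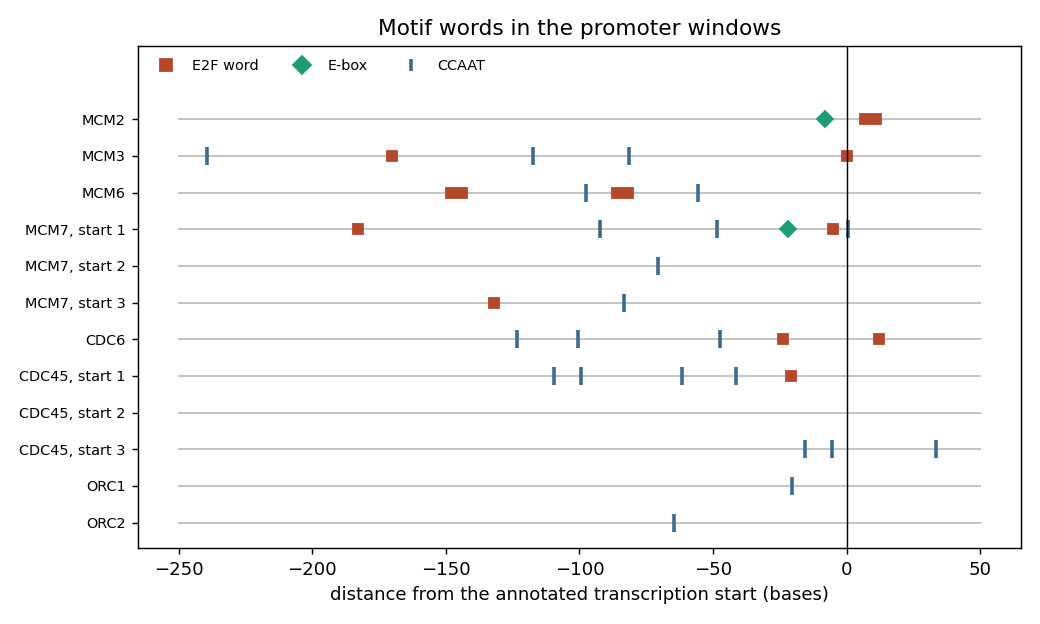
Position of E2F words (squares), E-boxes (diamonds) and CCAAT words (bars) from 250 bases before to 50 after each annotated start of the member genes; overlapping squares are words on opposite strands. E2F words lie 187 bases or less from a start in 6 genes, and ORC1 and ORC2 have only a CCAAT word.

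Among other genes of licensing, origin firing and S phase control, calls differed between the lists. Most origin firing genes tested were called lower (5 of 8). Most genes of the list of ORC subunits, loading factors and related genes (5 of 7) and of the control genes (12 of 17) were not called. Some of those not called were dim, as given below. The 3 lists held 50 genes. Of these, 34 were on the array with a probe set of their own and 32 passed the filter on dim values. Of these 32, each read from its brightest probe set, 10 were called lower, 2 higher and 20 were not called. Over all 5403 genes tested 15.8% were called lower and 15.2% higher (31.0% in all). ORC6, MCM8, MCMBP, LRWD1, DBF4B, MCM10, GINS2, GINS3, GINS4, TICRR, MTBP, DONSON, CLSPN, TIPIN, GMNN and FBXO5 are not analysed here. The median log2 fold change of the 32 genes was -0.061, against -1.18 for the 10 member genes and 0.019 for all genes tested.

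In the list of other ORC subunits, loading factors and related genes, 1 of 7 tested genes was lower and 1 higher. CDT1, which brings the helicase to ORC together with CDC6, had 3.67 to 4.30 on the STK38 shRNA arrays and 4.60 to 5.32 on the control arrays, without overlap. The log2 fold change of CDT1 was -0.86 (SE 0.17, adjusted p = 0.00106). ORC3, ORC4 and ORC5, core subunits of ORC like ORC2, were not called, with log2 fold changes of -0.28 (adjusted p = 0.0995), 0.057 (adjusted p = 0.765) and -2.1e-05 (adjusted p = 1.00). ORC3 passed without STK38 shRNA replicate 4 (adjusted p = 0.0440). KAT7, a histone acetyltransferase that acts with licensing factors, was called higher (log2 fold change 0.40, adjusted p = 0.0421), but the groups overlapped and the call was lost when any of 8 of the 10 arrays was left out. BAHD1, which is neither an ORC subunit nor a known loading factor, had 0.080 and did not pass. It cleared the background on 4 STK38 shRNA arrays and 4 control arrays. MCM9, a relative of the helicase subunits that was not above background on any array, also did not pass.

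Of 8 origin firing genes tested, 5 were lower and 0 higher, with a median log2 fold change of -0.51. DBF4, the regulatory subunit that activates the CDC7 kinase, had 4.25 to 4.64 on the STK38 shRNA arrays and 5.14 to 5.47 on the control arrays, a fall of 1.74-fold (SE 0.12 on the log2 scale, adjusted p = 0.000123). CDC7 itself fell 1.36-fold (adjusted p = 0.0202), a call lost without non-target shRNA replicate 3 (adjusted p = 0.0575). TOPBP1, a scaffold that helps CDC45 and GINS join the helicase, fell 1.56-fold (adjusted p = 0.000883). RECQL4, a helicase with a role in initiation, was called lower (adjusted p = 5.79e-05) and cleared the background on 1 STK38 shRNA array and 5 control arrays. RIF1, which directs a phosphatase that opposes CDC7, fell 1.50-fold (adjusted p = 0.0191), a call lost without non-target shRNA replicate 5 (adjusted p = 0.0544). GINS1, a GINS subunit, had a log2 fold change of 0.077 (SE 0.17, adjusted p = 0.804), WDHD1, a fork protein, of -0.12 and TIMELESS, of the fork protection complex, of 0.019, and none of these 3 passed.

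In the list of licensing and S phase control, 4 of 17 tested genes were lower and 1 higher. TFDP2, which encodes a DP partner of the E2F factors, had 6.67 to 6.87 on the STK38 shRNA arrays and 7.84 to 8.19 on the control arrays, and fell 2.32-fold (adjusted p = 1.01e-07). A second TFDP2 probe set had a log2 fold change of -1.12. TFDP1, the other DP gene, fell 1.51-fold (adjusted p = 0.00142), and its second probe set had -0.75. E2F4 and E2F5 were not called at any probe set, with -0.063 and -0.059 at the brightest, and neither was E2F3, with 0.16. E2F1 was not above background on any array at its brightest probe set, and E2F2 lay below the filter.

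CCNE2, a cyclin E gene whose product activates CDK2, fell 1.67-fold (adjusted p = 0.00504). CCNE1 was not called at its brighter probe set (adjusted p = 0.184, and 0.0451 without STK38 shRNA replicate 4) but was at the other (adjusted p = 0.000333), where levels were 1.68 to 1.92 against 2.13 to 2.72 on control arrays, near the background. CDK2 fell 1.47-fold (adjusted p = 0.0371) and CDK1, the mitotic kinase, rose 1.25-fold (adjusted p = 0.0346). Each of these calls was lost when any of 6 of the 10 arrays was left out, and the second CDK2 probe set (adjusted p = 0.0806) and both other CDK1 probe sets, with log2 fold changes of 0.052 and 0.017, did not pass. CCNA2, cyclin A2 of S and G2 phase, had 7.59 ± 0.12 on the STK38 shRNA arrays and 7.57 ± 0.080 on the control arrays (SD, n = 5 each; log2 fold change 0.024, SE 0.081, adjusted p = 0.876). CDC25A, SKP2, CUL4A, DDB1, RB1 and RBL2 were not called at their brightest probe sets, with -0.31 to 0.24 on the log2 scale, and DDB1 passed as higher without STK38 shRNA replicate 4 (adjusted p = 0.00643), and CUL4A as lower without non-target shRNA replicate 4 (adjusted p = 0.0283). At RB1 the brightest probe set had -0.28 with all arrays and 0.13 without STK38 shRNA replicate 4 (limma adjusted p = 0.674), so its direction rested on that array. Of the other RB1 probe sets, 2 had 0.34 and 0.25 and were not called with all arrays. Both were called higher without STK38 shRNA replicate 4 (adjusted p = 0.00966 and 0.0309). RBL1 lay below the filter.

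**Figure D5:**
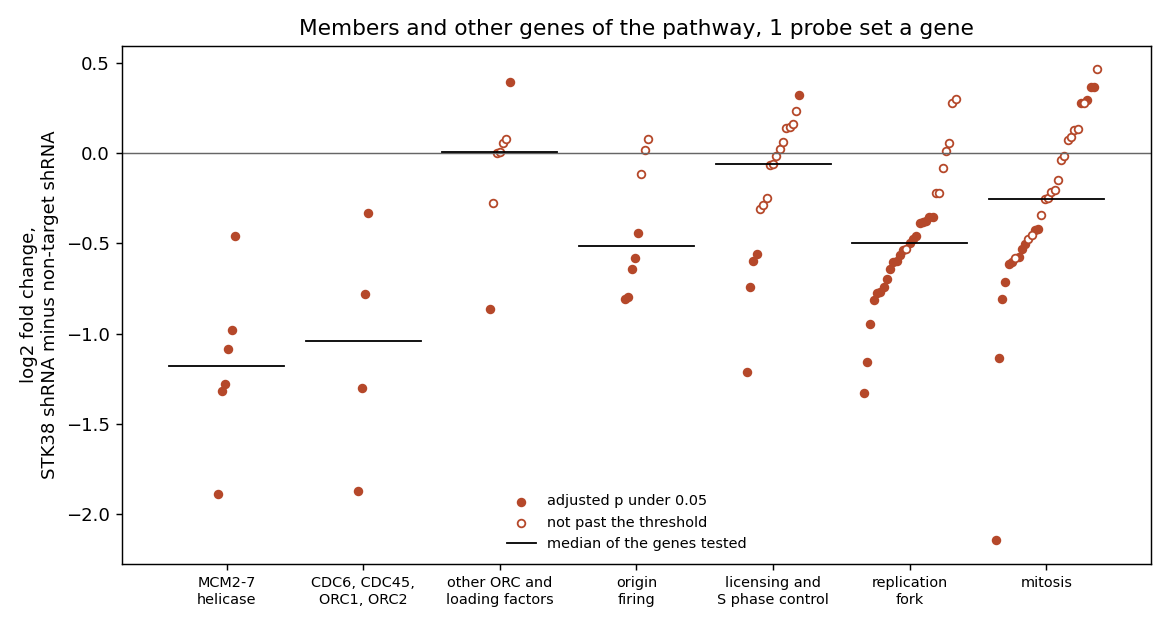
Log2 fold change of each tested gene at its brightest probe set, STK38 shRNA minus non-target shRNA, by list; filled points have an adjusted p under 0.05 and black lines are medians. All 10 member genes lie below 0, as do 25 of 29 replication fork genes, while the control and mitosis lists spread to both sides.

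Set beside the lists most like them, the member genes had the lower median. Of 29 replication fork genes tested, 21 were lower and 0 higher, with a median log2 fold change of -0.50; PRIM1, the primase subunit, had -1.33, POLA1, the catalytic subunit of DNA polymerase alpha, -1.16 and POLA2, of the same polymerase, -0.94. POLA1 and POLA2 each cleared the background on 4 STK38 shRNA arrays. Of 32 mitosis genes, 11 were lower and 4 higher, with a median of -0.25. CENPF, a kinetochore protein, had -2.15 and cleared the background on 4 STK38 shRNA arrays, TOP2A, which untangles DNA, had -1.14 and BUB3, of the spindle checkpoint, had -0.81. The difference between these lists and the members was not tested.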

How the data were processed

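Gene expression was measured on 10 1-colour Affymetrix HG-U95Av2 arrays, 5 a group. The deposited log2 values were made by the authors with GCRMA and affy, per the submitters' processing notes (versions not given in the sources used here). GCRMA estimates nonspecific binding from probe sequences, quantile-normalizes and combines probes on the log2 scale, and it compresses differences of dim probe sets. The table states no scale; log2 is read from the values and the tool. Groups and replicate numbers came from the labels.

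Symbols came from the platform annotation, updated through Entrez identifiers to RefSeq GRCh38.p14; 10943 of 12558 non-control probe sets named 1 gene. Probe sets with a mean under the 40th percentile (1.93) were left out, and all 11 member probe sets passed. The 7535 probe sets left, members included, were fitted with limma 3.58.1 in R 4.3.3, lmFit and eBayes with trend, no covariate, Benjamini-Hochberg adjustment over all 7535. Intervals are limma's 95% intervals. Array background was the 90th percentile of 23 mouse, yeast and reverse-strand control probe sets; member probe sets above it on no STK38 shRNA array are given without a fold. Subunit pairs and the 2 CDC6 probe sets were tested with exact permutation (scipy 1.17.1), and plots drawn with matplotlib 3.10.9. The methods were tested on simulated data.

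Members and lists were chosen with earlier results of these data known, and the motif words after the promoter sequences were seen. The rule for named genes took all members, STK38, MYC, all genes of the 3 pathway lists, at most 3 called genes with the largest change of each comparison list and the 5 genes most like the helicase mean. CD79A, CD247, PAX5, KRT8 and 5 further mitosis genes were named after their values were seen. The number of arrays limits the precision. Alternatives changed the scaling, filter, variance model, weights, threshold, background and arrays used.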

Additional observations from a re-analysis of the deposited data

Results flagged for a closer look

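MCM3 on STK38 shRNA replicate 4 had a log2 value of 5.12, while its group otherwise spanned 5.71 to 5.83. Its gap to the nearest array was 0.837 of the range of the group, above the critical value of 0.71 for 5 samples. It was the 1 sample set apart in this way among 22 groups examined (11 probe sets in each of 2 groups), and chance sets apart about 1 in 20. Without this array MCM3 had a log2 fold change of -0.95 (limma adjusted p = 2.09e-06), against -1.08 with it.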

How the results depend on the processing

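The 9 member probe sets other than ORC1 and the dim CDC6 one stayed called lower in all 21 alternatives, with log2 fold changes of -1.95 to -1.79 for MCM6 and -0.52 to -0.39 for MCM2. With each array left out in turn, 9 to 11 member probe sets, 1947 to 2817 probe sets over the array, 9 to 15 pathway genes (8 to 12 of them lower) and 5 to 10 of the 15 subunit pairs passed, where the smallest exact p is 0.0159. At an adjusted p of 0.01, 1494 probe sets and 7 pathway genes passed, against 2256 and 12. The calls of KAT7 and CDK1 were lost with median centring, with no filter and with the block, and that of CDK2 with no filter. DDB1 was called higher with array weights, centring on bright probe sets and quantile normalization, CUL4A lower with quantile normalization, and ORC3 lower with array weights and with no variance trend. Rescaling moved the median log2 fold change over all probe sets tested by at most 0.029. The share of calls that were higher was 47.2% with all arrays and 55.0% without STK38 shRNA replicate 4. With a replicate block, 2159 probe sets, 10 member probe sets and 10 pathway genes were called. Deviations of same-numbered samples correlated at -0.21 to 0.19, and 1 of 5 correlated best with its own number. These values gave no sign that the numbers pair the samples, but 5 correlations are too few to exclude it. The subunit differences were not run with pairs. Background without the ACTB and GAPDH controls put ORC1 above it on 2 STK38 shRNA and 4 control arrays, and the dim CDC6 probe set on 3 and 5. Signals near background limit ORC1 and that CDC6 probe set.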

Other observations

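The mean profile of MCM2 to MCM7 over the 10 arrays, as deviations from the non-target shRNA mean, was set against 6634 tested probe sets with 1 gene other than the members. The 5 with the smallest root mean square difference were TBC1D1, a Rab GTPase-activating protein (0.142 on the log2 scale), HSP90AB1, the constitutive cytosolic HSP90 (0.152), GNAI2, a G protein alpha subunit (0.158), HNRNPU, a nuclear RNA-binding protein (0.158), and XBP1, a transcription factor of the secretory pathway (0.165). HSP90AB1 had 9.25 ± 0.14 on the STK38 shRNA arrays and 10.42 ± 0.12 on the control arrays (SD, n = 5 each), and XBP1 had 6.96 ± 0.20 and 8.15 ± 0.23. The measure ranks likeness over arrays that fall into 2 groups, so it mainly follows the size of the group difference.

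Of 32 mitosis genes tested, 11 were called lower and 4 higher, against 15.8% lower and 15.2% higher of all genes tested. The 4 were CKS2, CDC20, PTTG1 and UBE2C, chosen after their values were seen. CDC20, an activator of the anaphase-promoting complex, had 7.24 ± 0.17 on the STK38 shRNA arrays and 6.88 ± 0.096 on the control arrays (SD, n = 5 each; log2 fold change 0.37, limma adjusted p = 0.00934). PTTG1, the securin, had 8.82 ± 0.099 and 8.45 ± 0.15 (log2 fold change 0.37, adjusted p = 0.00287). Cyclin B1, CCNB1, did not pass, with 0.13 (adjusted p = 0.440).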
